A study of Mus musculus with 6 samples.

Results

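The genes described here encode the digestive machinery of the lysosome: its proteases, glycosidases, sulfatases, lipid hydrolases and phosphatases, the proteins of its limiting membrane, a receptor that sorts enzymes to it, and the pump that acidifies it. A list of 47 such genes was taken by name, and each was read by a probe set whose annotation gives that gene alone. Of the 47, 43 had such a probe set, among 8251 genes read on the array, and *Galns*, *Arsb*, *Manba* and *Atp6v0c* had none. Where a gene had several, the probe set with the highest mean over all arrays was used.

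Livers of Liver Insulin Receptor Knockout (LIRKO) mice were compared with livers of Flox littermates on 3 arrays each. LIRKO mice were IR flox/flox and albumin:CRE +, so that both alleles of the insulin receptor gene, *Insr*, are flanked by loxP sites and a Cre recombinase driven by the albumin promoter, which is active in hepatocytes, removes the flanked part. Flox mice were IR flox/flox and albumin:CRE -, so that the controls carried the same floxed alleles without the recombinase. All were non-fasted males aged 2 to 3 months with free access to chow, on a mixed genetic background. RNA of 2 to 3 mice was pooled on each Affymetrix MG-U74A-v2 array, so the spread between arrays, and every p below, concerns these pools and not single mice. Values are log2 signals after robust multichip averaging (RMA), which corrects the background, normalizes the arrays and condenses the short oligonucleotides of a probe set into 1 value. A difference of 1 is a 2-fold difference, and brightness of different probe sets is not a measure of relative transcript amounts. In tissue RNA, fewer cells of a type and less RNA per cell cannot be told apart.

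Lysosomal hydrolases are made in the endoplasmic reticulum, tagged with mannose 6-phosphate in the Golgi and carried by mannose 6-phosphate receptors towards the lysosome, where the vacuolar ATPase pumps protons to give the acid pH at which they work. Many of their genes share a promoter sequence, the CLEAR element, which is bound by the transcription factor TFEB and its relatives. Insulin acts through Akt on the kinase complex mTORC1, which phosphorylates TFEB at the lysosomal surface and retains it in the cytoplasm. In liver, lysosomes and autophagy break down glycogen, lipid droplets and proteins between meals.

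The promoter sequences are shown first because the CLEAR element is the feature by which these genes are usually grouped. RefSeq promoter windows on build GRCm38.p6, running from 250 bases before to 50 bases after each start, were given for 39 of the 47 genes. Each window was searched for CACGTG (the E-box) and for TCACGTGA (taken as the CLEAR core). Each motif reads the same on both strands, and every CLEAR core contains an E-box. The E-box was in windows of 13 of the 39 genes (33.3%), against 8.09% of 27025 genes with a window. The CLEAR core was in 6 of 39 (15.4%), against 1.12% of all genes. Windows counted singly gave 27.7% against 7.15% of 32851 windows for the E-box and 12.8% against 0.974% for the core. The 8 matches to the CLEAR core follow, each in 30 bases read 5′ to 3′ on the strand of the gene, with the motif in capitals.
*Ctsa*, upstream match (chr2:164833749-164833778, plus strand): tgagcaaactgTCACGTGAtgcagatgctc
*Ctsa*, match past the start (chr2:164833766-164833795, plus strand): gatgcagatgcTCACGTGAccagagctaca
*Ctsd* (chr7:142387908-142387937, minus strand): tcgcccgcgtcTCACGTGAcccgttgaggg
*Cln3* (chr7:126583340-126583369, minus strand): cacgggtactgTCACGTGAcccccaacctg
*Gla*, far match (chrX:134601215-134601244, minus strand): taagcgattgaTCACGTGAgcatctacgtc
*Gla*, near match (chrX:134601182-134601211, minus strand): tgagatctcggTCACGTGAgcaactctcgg
*Atp6v0d1* (chr8:105566050-105566079, minus strand): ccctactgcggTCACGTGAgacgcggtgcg
*Atp6v1a* (chr16:44139373-44139402, minus strand): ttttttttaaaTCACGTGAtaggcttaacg

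With the start counted as 0, the first base of the motif lay at -13 and 4 for *Ctsa*, -99 for *Ctsd*, -122 for *Cln3*, -228 and -195 for *Gla*, -4 for *Atp6v0d1* and -132 for *Atp6v1a*. The other 7 genes with an E-box and no CLEAR core were *Ctsl*, *Lgmn*, *Lamp1*, *Glb1*, *Gaa*, *Naglu* and *Arsa*. *Lamp1* is shown as the window with the most matches, 4 E-boxes between -61 and -15, whose stretches overlap and repeat some bases.
*Lamp1*, first (chr8:13159088-13159117, plus strand): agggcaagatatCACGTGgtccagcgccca
*Lamp1*, next (chr8:13159104-13159133, plus strand): tggtccagcgccCACGTGatgccgactggc
*Lamp1*, next (chr8:13159121-13159150, plus strand): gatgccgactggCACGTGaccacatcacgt
*Lamp1*, last (chr8:13159134-13159163, plus strand): acgtgaccacatCACGTGcggaacggagcc
A match is a description of the letters and was not tested as a binding site.

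On LIRKO 2 and LIRKO 3 the deposited values were compressed, and this touched most of the lysosomal genes. Over all probe sets the standard deviation was 2.0, 1.72 and 1.78 on LIRKO 1, 2 and 3, and the Flox arrays had 1.96 to 2.01. The decile of probe sets brightest in Flox lay at -1.09 on LIRKO 2 and -0.89 on LIRKO 3 relative to Flox, and the next decile at -0.47 and -0.38, whereas LIRKO 1 stood at -0.01 and -0.02. The 9 spike-in controls, which come from other organisms and are added to the sample, lay at 1.08 and 0.96 on LIRKO 2 and LIRKO 3 and at -0.25 on LIRKO 1, and the Flox arrays spanned -0.23 to 0.18. Control probe sets at the 3′ and 5′ ends of a transcript, whose difference widens as RNA is broken or copied short, also differed. For *Actb* the 3′ minus 5′ difference was -0.01, 0.54 and 0.37 on LIRKO 1, 2 and 3, against -0.13, -0.06 and -0.01 on Flox 1, 2 and 3. For *Gapdh* it was 0.21, 0.12 and -0.15 on LIRKO 1, 2 and 3, against 0.26, 0.24 and 0.22 on Flox 1, 2 and 3, so that LIRKO 2 and LIRKO 3 stood apart for both genes, but in opposite directions. Of the 43 lysosomal genes, 24 had probe sets in the upper 2 deciles by Flox level and 18 of these were in the top decile. Each result is therefore given with LIRKO 1 beside it and with a level correction, in which the median difference of a gene's own decile was subtracted on each array. The sources used here do not say if RMA was run on the 6 arrays at once, and the part of the compression and of RNA quality in the results was not tested beyond these values. *Insr* itself read 5.37, 5.99 and 6.06 on LIRKO 1, 2 and 3, against 5.45, 5.22 and 5.38 on Flox 1, 2 and 3 (adjusted p = 0.245 from limma), and whether its probe set lies in the deleted part is not known here. Hepatocyte markers were present as the tissue label implies, with *Alb*, albumin, at 14.07 in LIRKO livers and 14.22 in Flox livers.

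Most lysosomal genes read lower in LIRKO livers than in Flox livers, but none passed the test, and the shift was carried by LIRKO 2 and LIRKO 3, the compressed arrays that also stood apart in the *Actb* and *Gapdh* end controls. The mean difference was below 0 for 35 of the 43 genes (81.4%, against 48.7% of all 12422 probe sets tested and 80.1% of the 2485 probe sets in the upper 2 deciles by Flox level) and above 0 for 8 (18.6%, against 51.3% of all probe sets). Their median was -0.49, against 0.01 for all probe sets, and -0.13 after the level correction, where 26 were below 0 (60.5%, against 48.6%) and 17 above (39.5%, against 51.4%). By array it was 0.02, -0.90 and -0.65 on LIRKO 1, 2 and 3, against 0.05, -0.02 and -0.00 on Flox 1, 2 and 3. On LIRKO 1, 23 genes were above the Flox mean (53.5%, against 45.6% of all probe sets) and 20 below it (46.5%, against 54.4%).

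**Figure D1:**
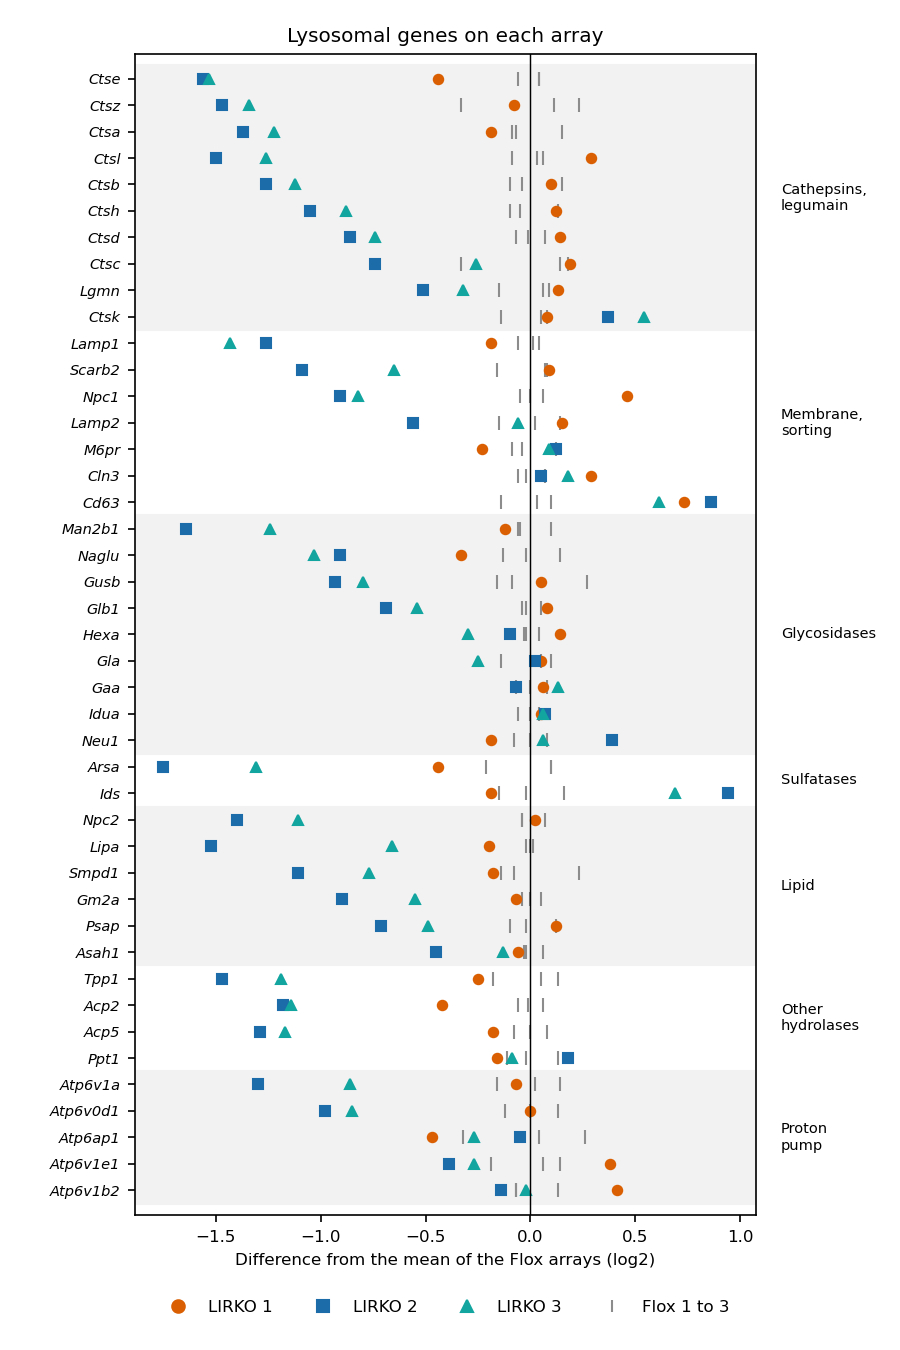
Each array minus the Flox mean (log2, horizontal axis) for the 43 lysosomal genes (rows, grouped by role); coloured symbols are LIRKO 1, 2 and 3 and grey ticks are the Flox arrays. The symbols of LIRKO 2 and LIRKO 3 lie left of 0 for most genes, with medians of -0.90 and -0.65, while those of LIRKO 1 lie on both sides of 0.

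At an adjusted p under 0.05 from limma, 0 of the 43 genes were higher and 0 were lower, against 0.0725% and 0.0564% of all probe sets, and the lowest adjusted p was 0.223 (*Cd63*). At an unadjusted p under 0.05, 1 gene was higher (2.33%, against 7.43% of all probe sets and 5.27% in the upper 2 deciles) and 15 were lower (34.9%, against 13.5% of all probe sets and 35.9% in the upper 2 deciles). The methods' t-test gave 0 genes after Benjamini-Hochberg adjustment, and 1 higher and 0 lower at an unadjusted p under 0.05, against 2.46% and 3.4% of all probe sets. After cyclic loess between arrays limma again gave 0 of the 43, against 0.185% of all probe sets higher and 0.137% lower, and after the level correction 0, against 0.177% and 0.169%. The 3 LIRKO arrays all lay below the 3 Flox arrays for 13 genes (30.2%, against 14.9% of all probe sets and 30.3% in the upper 2 deciles). They all lay above for 2 genes (4.65%, against 9.84%), *Cd63* and *Idua*. LIRKO 1 was above all 3 Flox arrays for 14 genes (32.6%, against 24.7% of all probe sets) and below them for 18 (41.9%, against 30.9%).

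The calls turned on 1 array. Without LIRKO 1, limma gave 26 lysosomal genes as lower (60.5%, against 26.7% of all probe sets and 66.9% in the upper 2 deciles). It gave 3 as higher (6.98%, against 22.4% and 10.3%), *Cd63*, *Ids* and *Ctsk*, and the median without LIRKO 1 was -0.80. With LIRKO 1 as the only LIRKO array, 0 were called by limma at an adjusted p under 0.05, against 0.443% of all probe sets higher and 0.282% lower, and the lowest adjusted p was 0.0575 (*Cd63*). In that fit the spread comes from the Flox arrays only and is assumed to hold for the lone LIRKO array, so it gives no replication in LIRKO livers.

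Genes were also set against probe sets of the upper 2 deciles and against dimmer ones, which matches brightness only in part. Of the 24 genes in the upper 2 deciles, 18 were in the top decile, against 1243 of all 2485 probe sets there. The top decile lay at -1.09 and -0.89 on LIRKO 2 and LIRKO 3, and the next at -0.47 and -0.38. The part of this imbalance in the gaps below was not tested. The 24 lysosomal genes in the upper 2 deciles had a median of -0.72, against -0.46 for all 2485 probe sets there. By array their median was -0.04, -1.18 and -0.86 on LIRKO 1, 2 and 3, against -0.02, -0.76 and -0.62 for all probe sets there. Of these 24, 23 were below 0 and 9 lay wholly below Flox (37.5%, against 30.3%) and 0 wholly above (against 4.39%). By limma 12 of the 24 were lower at an unadjusted p under 0.05 (against 35.9%) and 0 higher (against 5.27%). Without LIRKO 1 limma gave 20 as lower (83.3%, against 66.9%) and 0 as higher (against 10.3%). After the level correction the median of the 24 genes was -0.13. That of all probe sets there, 0.01, is held near 0 by the correction itself. The remaining 19 genes had a median of -0.06, against 0.06 for all dimmer probe sets, and 4 of them lay wholly below Flox (21.1%, against 11%) and 2 wholly above (10.5%, against 11.2%). By limma 3 of these were lower at an unadjusted p under 0.05 (15.8%, against 7.92%) and 1 as higher (5.26%, against 7.97%).

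**Figure D2:**
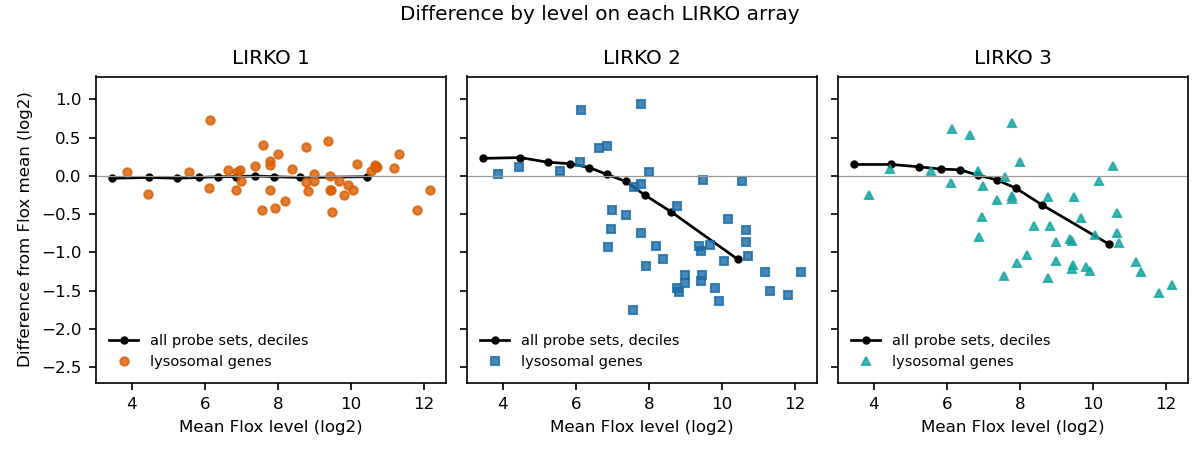
Difference from the Flox mean (log2, vertical axis) against mean Flox level (log2, horizontal axis) for the 43 lysosomal genes (symbols), with 1 panel per LIRKO array; the black line joins the medians of all probe sets in 10 equal groups by Flox level. The line drops to -1.09 on LIRKO 2 and -0.89 on LIRKO 3 in the brightest group and stays at -0.01 on LIRKO 1.

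By role, the median difference ran from -0.90 for the phosphatases and other hydrolases and -0.68 for the cathepsins and legumain, through -0.60 for the lipid hydrolases and their helpers and -0.34 for the sulfatases, to -0.26 for the proton pump, -0.16 for the membrane proteins and sorting receptor and -0.09 for the glycosidases. After the level correction the proton pump and the membrane proteins were on the other side of 0, at 0.13 and 0.24, and the other 5 groups stayed between -0.26 and -0.12. On LIRKO 1 the medians lay between -0.31 (sulfatases) and 0.15 (membrane proteins and sorting receptor). No test was run on a group.

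**Figure D3:**
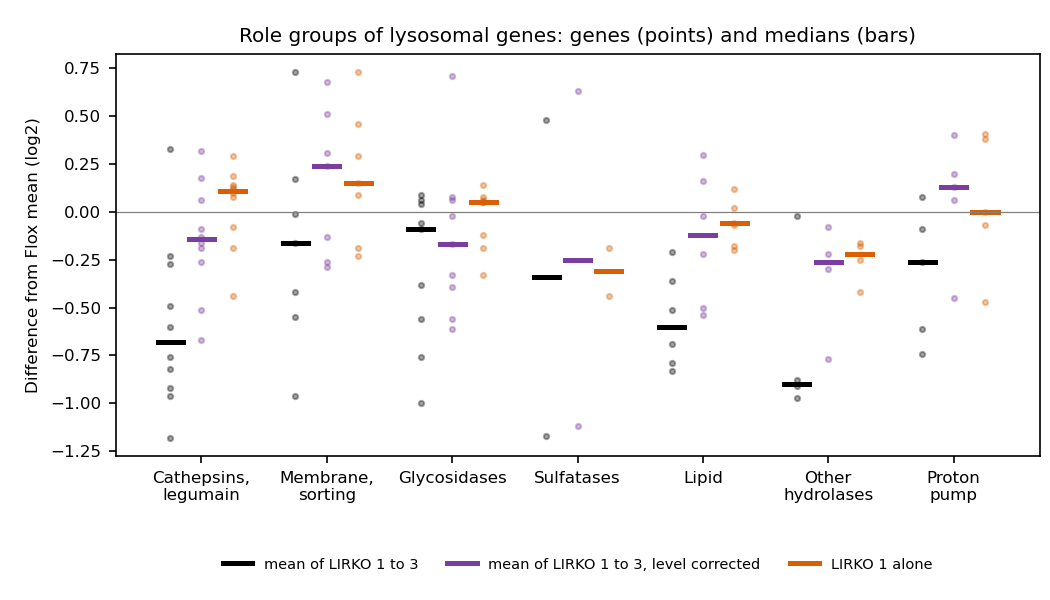
Difference from the Flox mean (log2, vertical axis) by role group; points are genes, and bars are group medians for the mean of the 3 LIRKO arrays (black), the same after level correction (purple) and LIRKO 1 alone (orange). The black bars run from -0.90 to -0.09, whereas the orange bars lie between -0.31 and 0.15.

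The cathepsins are the main lysosomal proteases, and legumain cleaves after asparagine and processes several of them. All 10 listed genes were measured, 7 of them in the upper 2 deciles, and 9 were below 0 and 1 above. At an unadjusted p under 0.05 limma gave 3 of the 10 lower (against 13.5% of all probe sets and 35.9% in the upper 2 deciles) and 0 higher. *Ctse*, cathepsin E, an aspartic protease found mainly in endosomes, had the lowest difference of the 43 genes. It read 11.35, 10.23 and 10.26 on LIRKO 1, 2 and 3, against 11.73, 11.83 and 11.83 on Flox 1, 2 and 3, a difference of -1.18 (SE 0.30, adjusted p = 0.237 from limma). All 3 LIRKO arrays were below Flox, and LIRKO 1 was the nearest, at -0.44. Another bright probe set of *Ctse* went the same way and a dim one did not, as given with the probe sets, so the rank of *Ctse* rests on the choice of probe set.

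*Ctsa*, cathepsin A, a carboxypeptidase that also protects neuraminidase and beta-galactosidase, read 9.23, 8.05 and 8.20 on LIRKO 1, 2 and 3, against 9.57, 9.33 and 9.35 on Flox 1, 2 and 3. The groups did not overlap, and the difference was -0.92 (SE 0.31, adjusted p = 0.237 from limma), or -0.26 after the level correction. *Ctsz*, cathepsin Z, another carboxypeptidase, read 8.69, 7.30 and 7.43 on LIRKO 1, 2 and 3, against 9.0, 8.44 and 8.88 on Flox 1, 2 and 3. LIRKO 1 stood inside the Flox range and the other two below it, for a difference of -0.96 (SE 0.38, adjusted p = 0.237 from limma).

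*Ctsk*, cathepsin K, the collagen-degrading protease of osteoclasts, was the 1 cathepsin above 0. It read 6.71, 7.0 and 7.16 on LIRKO 1, 2 and 3, against 6.49, 6.68 and 6.71 on Flox 1, 2 and 3. LIRKO 1 touched the highest Flox array, and the difference was 0.33 (SE 0.15, adjusted p = 0.251 from limma). The remaining 6 of this group, *Ctsb*, *Ctsc*, *Ctsd*, *Ctsh*, *Ctsl* and *Lgmn*, lay between -0.82 (*Ctsl*) and -0.23 (*Lgmn*) in the mean and between 0.10 (*Ctsb*) and 0.29 (*Ctsl*) on LIRKO 1. *Ctsd* and *Ctsh* stood at 0.18 and 0.06 after the level correction. *Ctsl*, the broad cysteine protease cathepsin L, read 11.60, 9.81 and 10.05 on LIRKO 1, 2 and 3, against 11.37, 11.22 and 11.34 on Flox 1, 2 and 3, so that LIRKO 1 was above every Flox array while the others were at -1.50 and -1.26.

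The membrane proteins and the sorting receptor held the member with the smallest p. *Cd63*, a tetraspanin of late endosomes and lysosomes, read 6.86, 6.99 and 6.74 on LIRKO 1, 2 and 3, against 5.99, 6.23 and 6.16 on Flox 1, 2 and 3. All 3 LIRKO arrays lay above all 3 Flox arrays, LIRKO 1 included, and the means were 6.86 ± 0.126 in LIRKO livers and 6.13 ± 0.123 in Flox livers (SD, n = 3 each). The difference was 0.73 (SE 0.13, unadjusted p = 0.000754, adjusted p = 0.223 from limma), and it was 0.73, 0.86 and 0.61 on LIRKO 1, 2 and 3. It was 0.68 after the level correction (adjusted p = 0.098 from limma) and 0.71 after cyclic loess between arrays (adjusted p = 0.0953 from limma). Leaving LIRKO 1 out gave a call as higher, also at 0.73 (adjusted p = 0.00134 from limma).

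*Lamp1*, the abundant glycoprotein that lines the lysosomal membrane, read 11.97, 10.90 and 10.72 on LIRKO 1, 2 and 3, against 12.20, 12.10 and 12.17 on Flox 1, 2 and 3. The groups did not overlap, the difference was -0.96 (SE 0.32, adjusted p = 0.237 from limma), and it was -0.29 after the level correction. *Npc1*, which moves cholesterol out of the lysosome, read 9.83, 8.47 and 8.56 on LIRKO 1, 2 and 3, against 9.43, 9.32 and 9.37 on Flox 1, 2 and 3. LIRKO 1 was above every Flox array and the other two were below every one, which left a mean difference of -0.42 (SE 0.35, adjusted p = 0.457 from limma) and 0.24 after the level correction. *Cln3*, a membrane protein mutated in juvenile Batten disease and one of the genes with a CLEAR core, read 8.29, 8.05 and 8.18 on LIRKO 1, 2 and 3, against 7.95, 8.08 and 7.99 on Flox 1, 2 and 3. Its LIRKO 2 value fell inside the Flox range, and the difference was 0.17 (SE 0.12, adjusted p = 0.381 from limma). The remaining genes were *Lamp2* at -0.16, *Scarb2*, which carries glucocerebrosidase to the lysosome, at -0.55, and the cation-dependent mannose 6-phosphate receptor *M6pr* at -0.01. By the probe set used, 101590_at, *Lamp2* was at 0.51 after the level correction. Its other probe set, 100136_at, stood at -0.77 in the mean and -0.11 after the level correction. The corrected direction of *Lamp2* therefore rests on the choice of probe set.

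The glycosidases trim sugars from glycoproteins, glycolipids, glycogen and glycosaminoglycans. Of 10 listed, 9 were measured, 2 of them in the upper 2 deciles, and 6 were below 0 and 3 above. Limma gave 2 lower at an unadjusted p under 0.05 (22.2%, against 13.5% of all probe sets and 7.92% below the upper 2 deciles) and 0 higher (against 7.43% of all probe sets). *Man2b1*, lysosomal alpha-mannosidase, read 9.79, 8.27 and 8.67 on LIRKO 1, 2 and 3, against 9.85, 10.01 and 9.86 on Flox 1, 2 and 3. The groups did not overlap, though LIRKO 1 was close to Flox at -0.12, and the difference was -1.0 (SE 0.36, adjusted p = 0.237 from limma) or -0.33 after the level correction. *Naglu*, which removes N-acetylglucosamine from heparan sulfate, read 7.87, 7.28 and 7.17 on LIRKO 1, 2 and 3, against 8.34, 8.18 and 8.07 on Flox 1, 2 and 3. All 3 LIRKO arrays were below Flox, the difference was -0.76 (SE 0.20, adjusted p = 0.237 from limma), and -0.61 remained after the level correction.

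*Gaa*, acid alpha-glucosidase, which breaks down glycogen in lysosomes, read 10.60, 10.47 and 10.67 on LIRKO 1, 2 and 3, against 10.54, 10.62 and 10.47 on Flox 1, 2 and 3. These values overlapped throughout, with a difference of 0.04 (SE 0.12, adjusted p = 0.837 from limma). It was the only one of the 24 genes in the upper 2 deciles that was not below 0. After the level correction it stood at 0.71 (adjusted p = 0.212 from limma), from 1.02 and 1.03 on LIRKO 2 and LIRKO 3 and 0.08 on LIRKO 1. The dimmer probe set of *Gaa*, 162441_i_at, stood at -0.10 after the level correction, so the corrected rise rests on the choice of probe set. *Neu1*, lysosomal neuraminidase, read 6.65, 7.23 and 6.90 on LIRKO 1, 2 and 3, against 6.92, 6.84 and 6.76 on Flox 1, 2 and 3. LIRKO 1 was below every Flox array and LIRKO 2 above every one, for a difference of 0.09 (SE 0.17, adjusted p = 0.755 from limma). *Idua*, alpha-L-iduronidase, read 5.61, 5.64 and 5.62 on LIRKO 1, 2 and 3, against 5.51, 5.61 and 5.57 on Flox 1, 2 and 3, a difference of 0.06 (SE 0.10, adjusted p = 0.729 from limma), where the lowest LIRKO and the highest Flox value were equal to 2 decimals. The remaining *Hexa*, *Gusb*, *Glb1* and *Gla* lay between -0.56 (*Gusb*) and -0.06 (*Gla*) in the mean and between 0.05 and 0.14 on LIRKO 1.

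Of 4 sulfatases, 2 were measured, and they lay on opposite sides of 0. *Arsa*, arylsulfatase A, which removes sulfate from sulfatide, read 7.13, 5.82 and 6.26 on LIRKO 1, 2 and 3, against 7.67, 7.36 and 7.67 on Flox 1, 2 and 3. All 3 LIRKO arrays were below Flox, and the difference of -1.17 (SE 0.32, adjusted p = 0.237 from limma) was -1.12 after the level correction and -0.44 on LIRKO 1. *Ids*, iduronate 2-sulfatase, which acts on heparan and dermatan sulfate, read 7.60, 8.73 and 8.48 on LIRKO 1, 2 and 3, against 7.64, 7.95 and 7.77 on Flox 1, 2 and 3. LIRKO 2 and LIRKO 3 were above every Flox array and LIRKO 1 below every one, which gave 0.48 (SE 0.29, adjusted p = 0.324 from limma). Its dimmer probe sets, 99882_at and 99884_at, stood at 0.14 and 0.07 on LIRKO 1 and at 0.17 and 0.39 in the mean. The low LIRKO 1 value of *Ids* therefore rests on the choice of probe set. Leaving LIRKO 1 out, *Ids* was called higher, at 0.82 (adjusted p = 0.000925 from limma).

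All 6 genes for lipid breakdown were measured and all were below 0, between -0.83 (*Npc2*) and -0.21 (*Asah1*). Of the 6, 5 were in the upper 2 deciles, where 35.9% of all probe sets were lower at an unadjusted p under 0.05 and 30.3% lay wholly below Flox. At that threshold limma gave 4 of the 6 lower (66.7%, against 13.5% of all probe sets), *Smpd1*, *Lipa*, *Gm2a* and *Npc2*, and 0 higher. Those that lay wholly below Flox were also 4 (66.7%, against 14.9% of all probe sets), *Smpd1*, *Lipa*, *Gm2a* and *Asah1*. *Smpd1*, acid sphingomyelinase, read 9.87, 8.95 and 9.28 on LIRKO 1, 2 and 3, against 10.28, 9.91 and 9.97 on Flox 1, 2 and 3. LIRKO 1 was just under the lowest Flox array, and the difference was -0.69 (SE 0.25, adjusted p = 0.237 from limma) before and -0.02 after the level correction. *Lipa*, lysosomal acid lipase, which frees cholesterol and fatty acids from lipoproteins and lipid droplets, read 8.63, 7.31 and 8.17 on LIRKO 1, 2 and 3, against 8.83, 8.81 and 8.84 on Flox 1, 2 and 3. Its difference was -0.79 (SE 0.31, adjusted p = 0.237 from limma), with LIRKO 2 farthest from Flox. *Npc2*, which hands cholesterol to NPC1, stood at 0.02 on LIRKO 1, and *Psap*, the precursor of the saposins that present lipids to hydrolases, at 0.12. After the level correction *Psap* and *Gm2a*, the GM2 activator, were on the other side of 0, at 0.30 and 0.16. Other probe sets of *Psap* stood at -0.22 (161476_at) and 0.38 (97560_at) after the level correction. The corrected direction of *Psap* therefore also rests on the choice of probe set.

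The other hydrolases were all below 0 on LIRKO 1 as well, where their median was -0.22. *Acp2*, lysosomal acid phosphatase, read 7.51, 6.75 and 6.79 on LIRKO 1, 2 and 3, against 7.99, 7.92 and 7.87 on Flox 1, 2 and 3. The 3 LIRKO arrays lay below the 3 Flox arrays, the difference was -0.91 (SE 0.22, adjusted p = 0.237 from limma), and it was -0.77 after the level correction and -0.42 on LIRKO 1. *Tpp1*, tripeptidyl peptidase, read 9.56, 8.34 and 8.62 on LIRKO 1, 2 and 3, against 9.94, 9.63 and 9.86 on Flox 1, 2 and 3. These did not overlap either, and the difference of -0.97 (SE 0.31, adjusted p = 0.237 from limma) was -0.30 after the level correction. *Acp5*, tartrate-resistant acid phosphatase, which macrophages and osteoclasts express, was at -0.88 and also lay wholly below Flox, and *Ppt1*, which removes palmitate from proteins, was at -0.02 with overlapping groups.

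**Figure D4:**
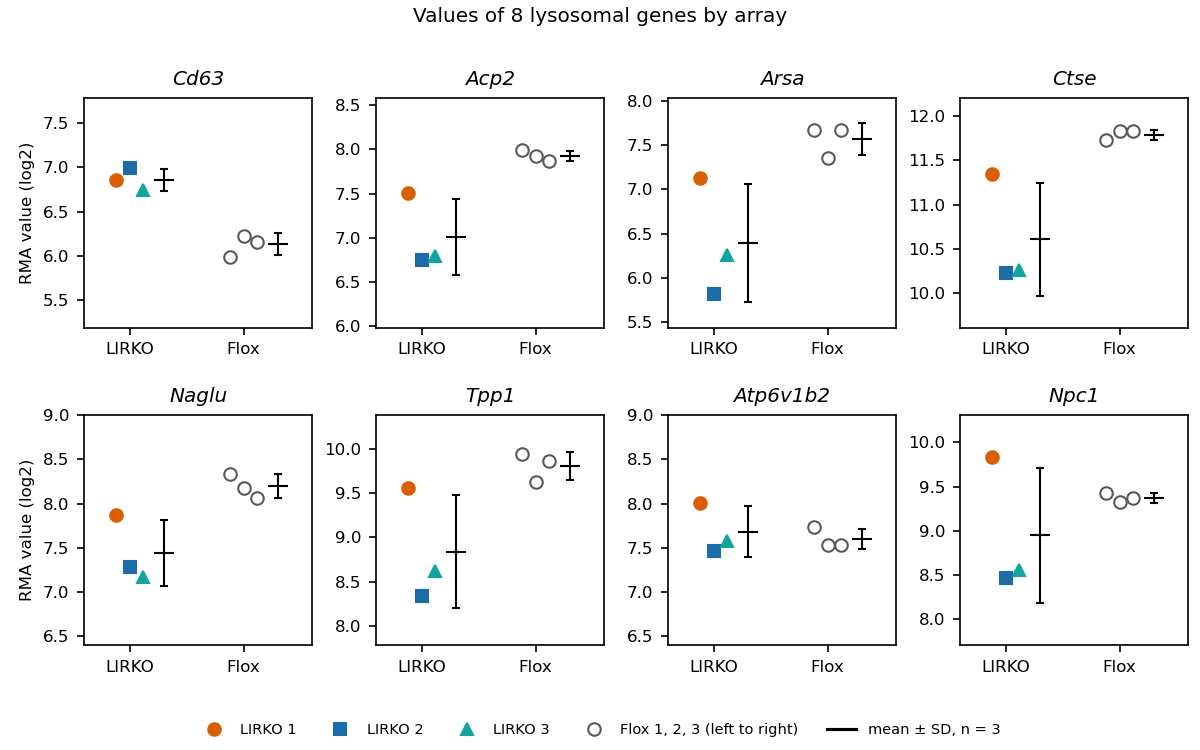
RMA values (log2, vertical axis, each panel spanning the same range) of *Cd63*, *Acp2*, *Arsa*, *Ctse*, *Naglu*, *Tpp1*, *Atp6v1b2* and *Npc1* on the LIRKO arrays (left, coloured) and the Flox arrays (right, open grey circles); horizontal marks with bars are means ± SD (n = 3). *Cd63* is above Flox on all 3 LIRKO arrays, at 6.74 to 6.99, while *Npc1* is above Flox on LIRKO 1 and below it on LIRKO 2 and LIRKO 3.

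Of 6 genes for the proton pump, 5 were measured, and by the probe sets used none had groups that did not overlap. Other probe sets of *Atp6v1a* and *Atp6v1b2* lay wholly above Flox, as given below. The pump joins a cytosolic V1 part that burns ATP to a V0 part in the membrane that carries protons. *Atp6v1a*, the catalytic subunit of V1 and one of the genes with a CLEAR core, read 8.91, 7.68 and 8.12 on LIRKO 1, 2 and 3, against 9.0, 8.82 and 9.12 on Flox 1, 2 and 3. LIRKO 1 was within the Flox range and the others below it, for a difference of -0.74 (SE 0.30, adjusted p = 0.237 from limma). *Atp6v1b2*, the B subunit beside it in V1, read 8.01, 7.46 and 7.58 on LIRKO 1, 2 and 3, against 7.73, 7.53 and 7.53 on Flox 1, 2 and 3. LIRKO 1 was above Flox at 0.41, LIRKO 2 was below it and LIRKO 3 was within it, for a difference of 0.08 (SE 0.17, adjusted p = 0.766 from limma). By its dimmer probe set, 92597_s_at, all LIRKO arrays lay above Flox, with a difference of 0.53 (SE 0.18, adjusted p = 0.237 from limma).

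*Atp6v1e1*, a subunit of the stalks that hold V1 to V0, read 9.17, 8.40 and 8.51 on LIRKO 1, 2 and 3, against 8.84, 8.59 and 8.92 on Flox 1, 2 and 3. Here too LIRKO 1 was above every Flox array and the others below every one, which left -0.09 (SE 0.22, adjusted p = 0.802 from limma). *Atp6ap1*, an accessory protein needed to assemble the pump, read 9.01, 9.42 and 9.21 on LIRKO 1, 2 and 3, against 9.52, 9.74 and 9.16 on Flox 1, 2 and 3. This was the lowest value on LIRKO 1 relative to Flox among the 43 genes, -0.47, and the mean difference was -0.26 (SE 0.19, adjusted p = 0.395 from limma), or 0.40 after the level correction. Its dimmer probe set, 94043_at, read 7.91, 6.79 and 6.83 on LIRKO 1, 2 and 3, against 7.97, 7.83 and 7.78 on Flox 1, 2 and 3. That probe set stood at 0.05 on LIRKO 1, -0.68 in the mean and -0.54 after the level correction, so the low LIRKO 1 value and the corrected direction of *Atp6ap1* rest on the choice of probe set. *Atp6v0d1*, a V0 subunit with a CLEAR core at its start, was at -0.61 in the mean, 0.00 on LIRKO 1 and 0.06 after the level correction.

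The promoter matches were also set beside the expression values. The 6 genes with a CLEAR core had a median difference of -0.55 (0.02 on LIRKO 1, -0.06 after the level correction), and the 13 with an E-box had one of -0.61 (0.05 on LIRKO 1, -0.19 after the level correction). The 23 measured genes with a window and no E-box had a median of -0.36 (-0.07 on LIRKO 1, -0.02 after the level correction). The ranges overlapped, from -0.92 to 0.17 with a core and from -1.0 to 0.73 with no E-box, and no test of this difference was run.

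Several genes were read by more than 1 probe set. Of 66 probe sets for the 43 genes, 16 genes had more than 1, and for 9 of these the probe sets lay on opposite sides of 0. For *Ctse*, probe set 93861_f_at was at -0.96 beside the -1.18 of 93860_i_at, whereas the dim 104696_at read 4.85, 6.36 and 4.91 on LIRKO 1, 2 and 3, against 4.87, 5.0 and 5.30 on Flox 1, 2 and 3, a difference of 0.32. Only LIRKO 2 stood out for that probe set. The Flox level of 104696_at was at the 22.4 percentile of all probe sets, against 98.7 for 93860_i_at and 98.2 for 93861_f_at. The fall of *Ctse* thus rests on the bright probe sets, and which of them reads *Ctse* best was not tested. For *Man2b1*, 162150_r_at read 6.63, 7.81 and 7.80 on LIRKO 1, 2 and 3, against 6.50, 6.74 and 6.77 on Flox 1, 2 and 3, a difference of 0.74 where 99562_at gave -1.0. For *Atp6v1a*, 95744_at read 7.09, 8.26 and 8.06 on LIRKO 1, 2 and 3, against 7.01, 7.02 and 7.06 on Flox 1, 2 and 3, a difference of 0.78 where 95746_at gave -0.74 and 95745_g_at gave -0.55. In both genes the disagreement was on LIRKO 2 and LIRKO 3, while on LIRKO 1 the probe sets lay between -0.12 and 0.06, so the direction of *Man2b1* and *Atp6v1a* is uncertain.

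The other 6 genes with opposite signs had smaller differences. *Psap* was at -0.36 by both 97114_at and 161476_at and at 0.44 by 97560_at. *Ctsb*, cathepsin B, was at -0.76 by 94831_at, -0.32 by 92256_at, 0.11 by 162271_f_at and 0.17 by 95608_at. *Ctsc*, which activates granule proteases, was at -0.27 by 101019_at, -0.71 by 101020_at and 0.07 by 161251_f_at. *Cln3*, *Hexa* and *Gaa* had a pair of probe sets each, at 0.17 and -0.11, at -0.09 and 0.01, and at 0.04 and -0.09. The probe sets of *Lamp2*, *Glb1*, *Ids*, *Arsa*, *Smpd1*, *Atp6v1b2* and *Atp6ap1* had the same sign in the mean. Those of *Lamp2*, *Ids*, *Atp6v1b2* and *Atp6ap1* differed in other ways, as given above. For *Glb1*, 161754_f_at stood at -0.17 on LIRKO 1 and lay wholly below Flox, where 103647_at stood at 0.08 on LIRKO 1. *Arsa* was at -1.17 by 100931_at and -0.33 by 161286_f_at in the mean. *Smpd1* was at -0.69 by 100099_at and -0.08, with overlap, by 161789_r_at. The size of these falls rests on the choice of probe set.

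**Figure D5:**
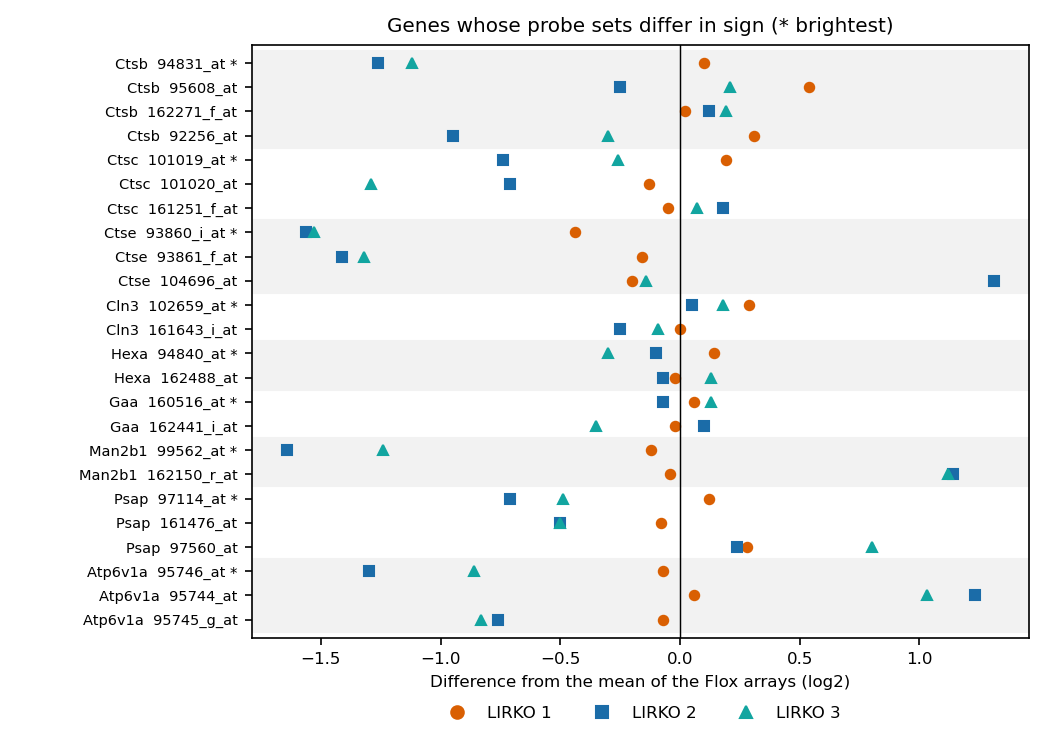
Each LIRKO array minus the Flox mean (log2, horizontal axis) for every probe set of the 9 genes whose probe sets differ in sign; an asterisk marks the probe set with the highest mean, which was used. For *Man2b1* and *Atp6v1a* the probe sets part on LIRKO 2 and LIRKO 3, while on LIRKO 1 they lie between -0.12 and 0.06.

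Further genes of the pathway were read from 4 lists, and limma gave 0 calls at an adjusted p under 0.05 in each. As with the 43 genes, this turned on LIRKO 1, and the counts without that array are given beside each list. Without it 26.7% of all probe sets were lower and 22.4% higher, and in the upper 2 deciles 66.9% were lower and 10.3% higher. Among all probe sets limma gave 13.5% as lower and 7.43% as higher at an unadjusted p under 0.05, and the methods' t-test 3.4% and 2.46%. In the upper 2 deciles limma gave 35.9% as lower and 5.27% as higher at that threshold. Of 39 further lysosomal hydrolases and membrane proteins, 20 were measured, 18 were below 0, and the median was -0.33 (-0.07 on LIRKO 1, -0.18 after the level correction). By limma 7 of the 20 were lower and 0 higher at an unadjusted p under 0.05, and the methods' t-test gave 1 lower, where 7 of the 20 lay in the upper 2 deciles. Without LIRKO 1, limma gave 13 of the 20 lower and 0 higher at an adjusted p under 0.05. *Scpep1*, a serine carboxypeptidase, read 7.06, 6.60 and 6.15 on LIRKO 1, 2 and 3, against 7.34, 7.41 and 7.48 on Flox 1, 2 and 3 (adjusted p = 0.237 from limma). *Fuca1*, alpha-L-fucosidase, read 7.69, 6.51 and 6.60 on LIRKO 1, 2 and 3, against 7.99, 7.95 and 7.87 on Flox 1, 2 and 3 (adjusted p = 0.237 from limma). *Hgsnat*, which acetylates heparan sulfate before *Naglu* acts on it, read 7.04, 6.72 and 6.89 on LIRKO 1, 2 and 3, against 7.36, 7.21 and 7.37 on Flox 1, 2 and 3 (adjusted p = 0.237 from limma). In all 3 genes the LIRKO arrays lay wholly below Flox, LIRKO 1 included, with differences of -0.81, -1.01 and -0.43. These 3 were named for the smallest p of the list. In the list 4 of 20 lay wholly below Flox (20%, against 14.9% of all probe sets and 30.3% in the upper 2 deciles).

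Of 14 further pump subunits, 10 were measured, 6 were below 0 and 4 above, with a median of -0.14 (0.14 on LIRKO 1, 0.08 after the level correction). Of the 10, 1 was lower and 0 higher by limma at an unadjusted p under 0.05, and 0 by the methods' t-test, where 5 lay in the upper 2 deciles. Without LIRKO 1, limma gave 4 of the 10 lower and 0 higher at an adjusted p under 0.05. *Atp6v0a1*, a V0 subunit that lines the path of protons, read 7.29, 6.40 and 6.93 on LIRKO 1, 2 and 3, against 7.56, 7.50 and 7.51 on Flox 1, 2 and 3, a difference of -0.65 with no overlap (adjusted p = 0.237 from limma). *Atp6v0e*, a small V0 subunit, read 8.62, 7.67 and 7.43 on LIRKO 1, 2 and 3, against 8.49, 8.62 and 8.59 on Flox 1, 2 and 3, a difference of -0.66 (adjusted p = 0.247 from limma). *Atp6v1h*, a regulatory V1 subunit, read 7.85, 7.06 and 7.37 on LIRKO 1, 2 and 3, against 7.89, 7.79 and 7.86 on Flox 1, 2 and 3, a difference of -0.43 (adjusted p = 0.257 from limma). In both genes LIRKO 2 and LIRKO 3 were below every Flox array and LIRKO 1 was not.

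Of 20 genes for sorting and for protease inhibitors, 14 were measured, 10 were below 0 and 4 above, with a median of -0.32 (0.09 on LIRKO 1, 0.06 after the level correction). At an unadjusted p under 0.05 limma gave 1 lower (7.14%) and 0 higher, and the methods' t-test 1 lower, where 7 of the 14 lay in the upper 2 deciles. Without LIRKO 1, limma gave 9 lower (64.3%) and 2 higher at an adjusted p under 0.05. *Stx7*, a SNARE protein of endosome fusion, read 6.58, 6.51 and 6.45 on LIRKO 1, 2 and 3, against 6.88, 7.0 and 6.88 on Flox 1, 2 and 3. Its LIRKO arrays were close together and wholly below Flox, with a difference of -0.41 before and after the level correction (SE 0.11, adjusted p = 0.237 from limma). *Cst3*, cystatin C, a secreted inhibitor of cysteine cathepsins, read 10.19, 8.74 and 9.07 on LIRKO 1, 2 and 3, against 10.06, 10.13 and 10.23 on Flox 1, 2 and 3. LIRKO 1 was within the Flox range, and the difference was -0.80 (adjusted p = 0.243 from limma). *Gnptab*, which begins the mannose 6-phosphate tag, read 5.56, 6.60 and 6.35 on LIRKO 1, 2 and 3, against 5.65, 5.68 and 5.42 on Flox 1, 2 and 3, a difference of 0.59 (adjusted p = 0.248 from limma) with LIRKO 1 within the Flox range.

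Of 32 genes of autophagy and its regulators, 28 were measured, 25 were below 0 and 3 above, with a median of -0.33 (-0.01 on LIRKO 1, -0.08 after the level correction). At an unadjusted p under 0.05 limma gave 7 of the 28 lower and 0 higher, and the methods' t-test 0, where 13 of the 28 lay in the upper 2 deciles. Without LIRKO 1, limma gave 20 lower (71.4%) and 1 higher (3.57%) at an adjusted p under 0.05. *Tfeb*, the regulator named above, read 7.56, 7.57 and 7.66 on LIRKO 1, 2 and 3, against 7.66, 7.83 and 7.57 on Flox 1, 2 and 3, with overlap and a difference of -0.10 (SE 0.12, adjusted p = 0.613 from limma). *Atg5*, part of the complex that attaches LC3 to the autophagosome, read 7.20, 6.52 and 6.77 on LIRKO 1, 2 and 3, against 7.44, 7.42 and 7.57 on Flox 1, 2 and 3. *Atg7*, the activating enzyme of the same reaction, read 7.20, 6.47 and 6.04 on LIRKO 1, 2 and 3, against 7.37, 7.54 and 7.38 on Flox 1, 2 and 3. *Lamtor1*, which anchors mTORC1 to the lysosome, read 8.26, 7.58 and 7.79 on LIRKO 1, 2 and 3, against 8.42, 8.48 and 8.50 on Flox 1, 2 and 3. The LIRKO arrays lay wholly below Flox for all 3 genes, with differences of -0.65 for *Atg5*, -0.86 for *Atg7* and -0.59 for *Lamtor1* (adjusted p = 0.237 from limma for each). These 3 were named for the smallest p of the list. In the list 6 of 28 lay wholly below Flox (21.4%, against 14.9% of all probe sets and 30.3% in the upper 2 deciles). *Bnip3*, a receptor for mitophagy, read 8.77, 7.59 and 8.27 on LIRKO 1, 2 and 3, against 7.75, 7.83 and 8.02 on Flox 1, 2 and 3. LIRKO 1 and LIRKO 3 were above every Flox array and LIRKO 2 below every one, which gave 0.35 (adjusted p = 0.454 from limma) over the 3 LIRKO arrays and 0.90 on LIRKO 1.

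Macrophages as well as hepatocytes express lysosomal genes strongly, so markers of both were read on the same arrays. Of 20 markers of Kupffer cells and macrophages, 18 were measured and 0 passed at an adjusted p under 0.05 in limma. At an unadjusted p under 0.05 limma also gave 0 (against 13.5% of all probe sets lower and 7.43% higher). The methods' t-test gave 0 at either threshold (against 3.4% lower and 2.46% higher at the unadjusted one). Without LIRKO 1 limma gave 5 lower (27.8%, against 26.7% of all probe sets) and 1 higher (5.56%, against 22.4%) at an adjusted p under 0.05. The median difference of the 18 markers was 0.25, -0.45 and -0.11 on LIRKO 1, 2 and 3, against -0.33, 0.26 and 0.12 on Flox 1, 2 and 3, and 16 of the 18 were above the Flox mean on LIRKO 1. The median level of the list ran from 7.18 to 8.27 over the LIRKO arrays, against 7.25 to 8.20 over the Flox arrays, and RMA gives no marker a value of 0. *Ctss*, cathepsin S, a macrophage cathepsin outside the 43, read 8.81, 7.59 and 8.11 on LIRKO 1, 2 and 3, against 7.44, 8.51 and 8.44 on Flox 1, 2 and 3, with Flox 1 the lowest of all 6 arrays. The 10 measured of 12 hepatocyte markers had medians of 0.01, -1.02 and -1.01 on LIRKO 1, 2 and 3, against 0.04, -0.04 and 0.00 on Flox 1, 2 and 3, and the median of their Flox levels was at the 99.6 percentile of all probe sets. Other cell types had medians of 0.13 (13 leukocyte markers), 0.08 (8 endothelial), 0.28 (8 stellate and fibroblast) and -0.01 (3 biliary). The macrophage markers and the lysosomal genes were both higher on LIRKO 1 than on LIRKO 2 and LIRKO 3, and the part of macrophage content in the lysosomal values was not tested.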

How the data were processed

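Liver RNA of LIRKO and Flox mice was read on 6 one-colour Affymetrix MG-U74A-v2 arrays. The authors background-corrected, normalized and summarised the signals by RMA, of unstated version. The log2 values they deposited, 1 for each probe set on each array, were used as they stood. Scanner images were not used here, so no background or saturation could be read per array, and precision is limited by having 6 arrays.

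The table held 12488 probe sets, of which 66 array controls were left out and 12422 tested. The platform annotation gives 10833 of these 1 symbol, 396 several and 1193 none. For LIRKO against Flox, limma 3.58.1 (lmFit, eBayes) was run in R 4.3.3 with Benjamini-Hochberg adjustment over all 12422 and a threshold of 0.05, as in the study's methods. The script was tested on simulated data. Counts, promoter searches and figures used Python 3.11.15, pandas 2.3.3, numpy 2.4.6 and matplotlib 3.10.9.

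The genes and lists were chosen with earlier results of these data known. Genes given with all 6 values are any past the threshold, the 8 largest rises and 8 largest falls, the 4 largest each way on LIRKO 1, the smallest p of each role group, and the 3 smallest p of each further list. *Ctsl*, *Lipa*, *Tfeb*, *Bnip3* and *Ctss* were added after their values were seen. Alternatives were renewed quantile normalization, cyclic loess, the level correction, a filter keeping the upper 3 quartiles by mean, a variance trend, the methods' unequal variance t-test, a block on the replicate number, leaving out each array, LIRKO 1 alone and the average over all probe sets of a gene.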

Additional observations from a re-analysis of the deposited data

How the results depend on the processing

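With 3 pools per genotype, and with LIRKO 2 and LIRKO 3 compressed, the precision of every bright gene is limited. The count of all probe sets past the threshold was 16. It was 40 after cyclic loess, 43 after level correction, 0 by the methods' t-test and 90 with LIRKO 1 alone, and leaving out 1 array gave 2 (without LIRKO 2), 3 (LIRKO 3), 5 (Flox 1), 3 (Flox 2), 3 (Flox 3) and 6095 (without LIRKO 1). The count of lysosomal genes was 0, also under every alternative other than leaving out LIRKO 1, so that leaving out 1 array gave 0 to 29. Their median of -0.49 became -0.12 after cyclic loess, -0.13 after level correction and 0.02 with LIRKO 1 alone, and -0.80 to -0.30 on leaving out 1 array. Labels give LIRKO and Flox the same replicate numbers but name no pairs, and the main fit used none. Same-numbered arrays deviated together with correlations of 0.321, 0.399 and 0.092 for numbers 1, 2 and 3. Arrays of different number gave -0.369 to 0.166, so for numbers 1 and 2 a shared deviation is possible and its source was not tested. A block on the replicate number gave 11 probe sets and 0 lysosomal genes past the threshold and a median of -0.49, and LIRKO 3 correlated best with Flox 2 (0.166).

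Single genes changed direction as follows, none past the threshold. On LIRKO 1 alone *Ctsb* stood at 0.10, *Ctsc* at 0.19, *Ctsd* at 0.14, *Ctsh* at 0.12, *Ctsl* at 0.29, *Lgmn* at 0.13, *Lamp2* at 0.15, *Scarb2* at 0.09, *Npc1* at 0.46, *Hexa* at 0.14, *Gusb* at 0.05, *Glb1* at 0.08, *Gla* at 0.05, *Neu1* at -0.19, *Ids* at -0.19, *Psap* at 0.12, *Npc2* at 0.02, *Atp6v0d1* at 0.00 and *Atp6v1e1* at 0.38. Renewed quantile normalization, cyclic loess and level correction gave 0.03, 0.16 and 0.18 for *Ctsd*, 0.35, 0.44 and 0.51 for *Lamp2*, 0.03, 0.02 and 0.06 for *Hexa*, -0.00, -0.02 and -0.02 for *Idua*, 0.20, 0.29 and 0.30 for *Psap*, 0.10, 0.22 and 0.20 for *Atp6v1e1*, and 0.14, 0.20 and 0.40 for *Atp6ap1*. Cyclic loess and level correction gave 0.04 and 0.06 for *Ctsh*, and level correction alone turned *Npc1* (0.24), *Gm2a* (0.16) and *Atp6v0d1* (0.06). The mean of its probe sets turned *Gaa* to -0.03. Leaving out 1 array turned 9 genes. *M6pr* (range -0.07 to 0.10) turned without LIRKO 1 and, at 0.05, without Flox 2. *Ppt1* (-0.12 to 0.05) turned without LIRKO 1, LIRKO 3 (0.01) and Flox 1 (0.04), and *Atp6v1b2* (-0.08 to 0.20) without LIRKO 1. *Lamp2* (-0.31 to 0.04), *Neu1* (-0.07 to 0.22) and *Atp6v1e1* (-0.33 to 0.06) turned without LIRKO 2, and *Hexa* (-0.20 to 0.02), *Gla* (-0.13 to 0.04) and *Gaa* (-0.01 to 0.10) without LIRKO 3. The cause of these changes was not tested.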
